A study of Mus musculus with 2 samples.

Results

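The genes described here encode the sarcomere, the contractile unit of striated muscle, with its assembly chaperones and the muscle creatine kinase and myoglobin genes. They were chosen by gene symbol from a list of 53 genes, and all 53 were found among the 21829 genes with values. The data are RNA sequencing of C2C12, an immortalised mouse myoblast line kept in growth medium with serum, with 1 library from wild-type cells (WT) and 1 library from cells in which Gne, the enzyme that starts sialic acid synthesis, was edited (KO). The KO cells derive from WT C2C12 cells through electroporation of Cas9 and guide plasmids and isolation of single clones, and carry a frameshift in exon 2 of Gne. Neither library is labelled as treated or as differentiated into myotubes. The comparison asks whether the contractile programme differed between the lines. With 1 library per line no difference below has a replicate check, no test was possible and no p-value is given, and a difference between clones cannot be told apart from one of genotype.

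In a sarcomere, thick filaments of myosin pull on thin filaments of actin that are anchored at the Z-disc, while titin spans from the Z-disc to the M-band. Tropomyosin lies along actin, and the troponin complex of a calcium-binding subunit (troponin C), an inhibitory subunit (troponin I) and a tropomyosin-binding subunit (troponin T) moves it when calcium rises. Proliferating myoblasts build their cytoskeleton mostly from non-muscle actins and myosins, and the sarcomeric genes are switched on when they leave the cell cycle and fuse into myotubes, first with embryonic and cardiac isoforms.

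Each gene has 1 normalized value per library, in a unit the files do not name and treated here as FPKM, a fragment number scaled to transcript length and library size. The values summed to 568410 in the WT and 574144 in the KO library over all genes, and the number of reads is unknown. Differences are log2((KO + 1)/(WT + 1)), where the pseudocount of 1 shrinks those of weakly expressed genes. They were computed where the mean of both libraries reached 1 FPKM, called the filter below, which kept 10542 genes. Across these genes the median log2 difference was 0.0061 and the interquartile range ran from -0.21 to 0.23. Gne had 6.67 FPKM in the WT and 7.34 FPKM in the KO library. Its RNA level thus gives no check of the labels, on which every direction below rests. Of 9 myoblast markers, 8 passed the filter, 1 was more than 2-fold higher in KO and 4 were lower, with sums of 308 FPKM in WT and 116 FPKM in KO, and Pax7 was listed at 0 in both. Des, the muscle intermediate filament gene, had 97.6 FPKM in WT and 3.84 FPKM in KO, Cdh15 had 16.6 and 0.701 FPKM, and Chrna1 had 15.3 and 0.917 FPKM. Myod1, at 60.0 FPKM in WT, was listed at 0 in the KO library, and without counts this 0 may be a failed estimate. In RNA from whole cultures, fewer cells of a type and less RNA per cell cannot be told apart.

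Most sarcomere genes were hardly detected in either line, and a small set of them was abundant. Of the 53 genes, 13 passed the filter, 12 were listed at 0 in both libraries and the other 28 lay between 0 and 0.401 FPKM. In each library 12 members reached 1 FPKM and 6 reached 10 FPKM, namely the 4 tropomyosins, Tnnt2 and Flnc. The members summed to 1137 FPKM in WT and 1513 FPKM in KO, which is 0.200% and 0.264% of all values. Tropomyosins made up 92.9% of the members' sum in WT and 94.1% in KO. Without them the sums were 80.7 and 89.0 FPKM. The transcripts of the listed myosin heavy chains and myosin-binding proteins and of titin were close to 0 in both libraries.

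**Figure D1:**
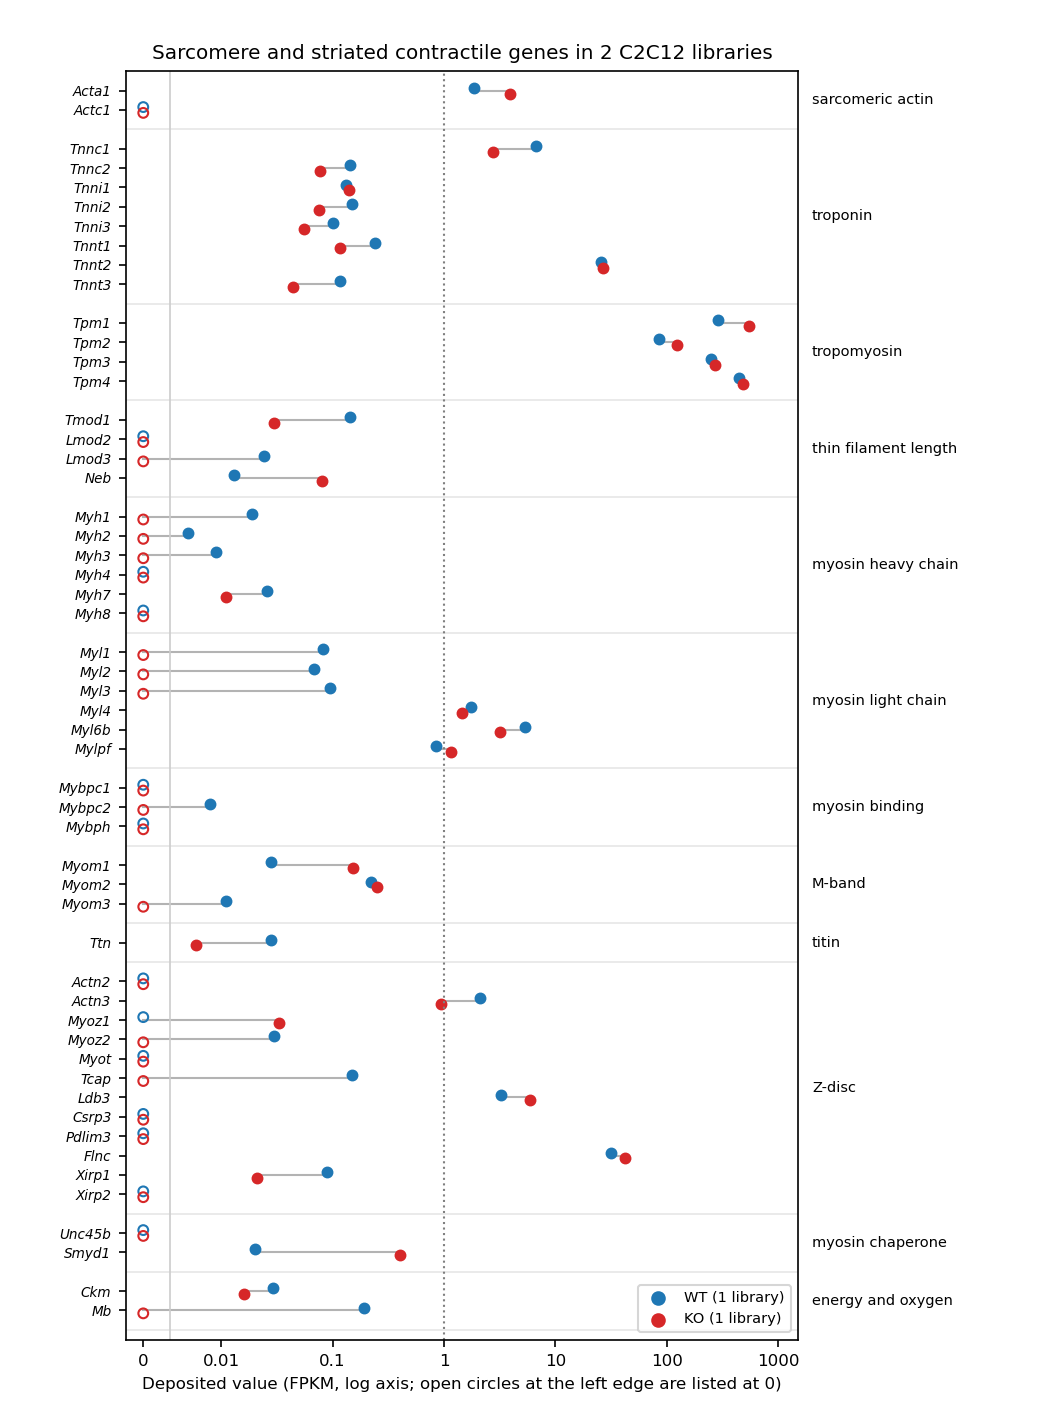
FPKM of each of the 53 members in the WT library (blue) and the KO library (red), on a log axis, grouped by role, with open circles for values listed at 0 and a dotted line at 1 FPKM. Tropomyosins, Tnnt2 and Flnc lie to the right, 13 members pass the filter, and 12 are at 0 in both libraries.

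Among the 13 members past the filter the log2 differences ran from -1.03 to 0.94. None was more than 2-fold higher in KO, against 2.84% of all genes, and 1, Tnnc1, was lower by more than 2-fold, where the share of all genes was 3.43%. A higher value in KO was found for 9 of the 13 (69.2%), against 50.7% of all genes past the filter. A lower one was found for 4, and the median log2 difference was 0.14. Within the interquartile range of all genes lay 5 members, with 5 above it and 3 below it. Tpm1 had the highest value at 0.94, followed by Acta1 at 0.79, Ldb3 at 0.70 and Tpm2 at 0.55. Tnnc1 had the lowest at -1.03, followed by Actn3 at -0.69 and Myl6b at -0.60. The 2-fold calls depended on the pseudocount. With a pseudocount of 0.1, Acta1 was more than 2-fold higher (3.89% of all genes) and both Tnnc1 and Actn3 were more than 2-fold lower (4.47% of all genes). With a pseudocount of 5, no member was beyond 2-fold.

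**Figure D2:**
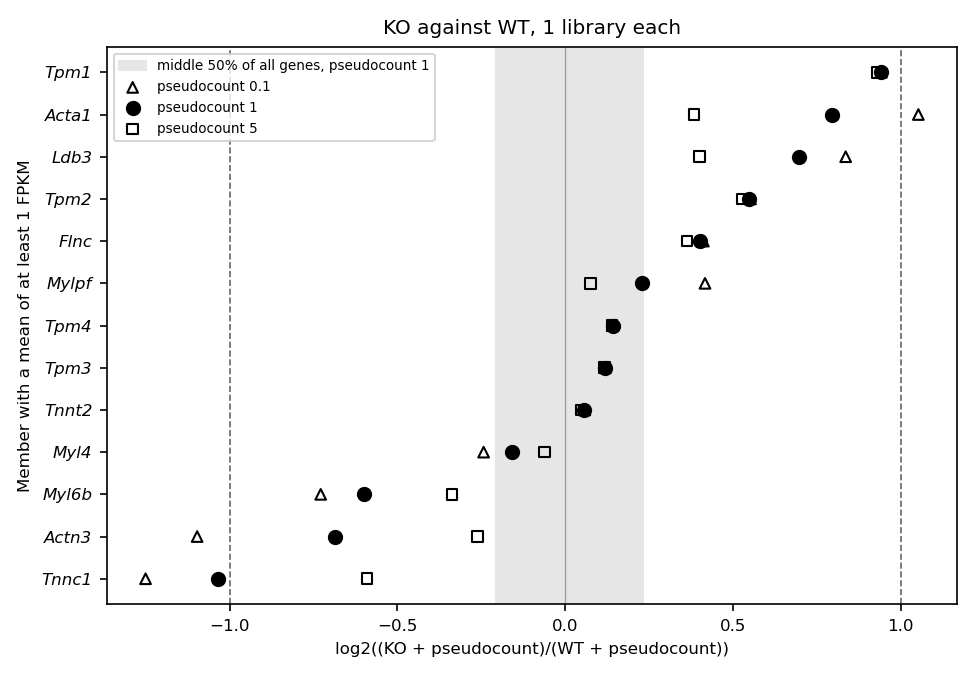
log2 difference of KO against WT for the 13 members past the filter, with 3 pseudocounts, dashed lines at 2-fold and a grey band for the interquartile range of all genes. The values of the abundant genes Tpm1, Tpm2, Tpm3, Tpm4 and Tnnt2 hardly move with the pseudocount, whereas Tnnc1, Actn3 and Acta1 move across a 2-fold line.

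**Figure D3:**
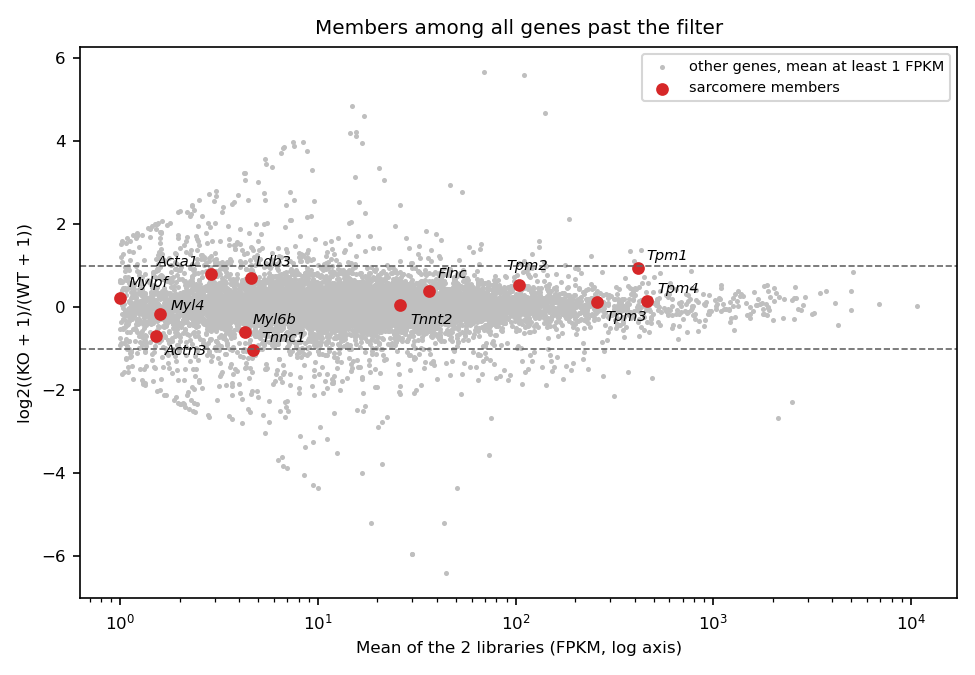
log2 difference of KO against WT, pseudocount 1, against the mean FPKM of the 2 libraries on a log axis for 10542 genes (grey) and the 13 members past the filter (red). Tpm1 lies at 0.94, just short of the upper dashed line, and Tnnc1 lies at -1.03, just past the lower dashed line.

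The 250 bases before the annotated start of Acta1, Tpm1 and Tnnc1 are shown because these members had the largest differences in either direction. The sequences are from RefSeq on GRCm38.p6, read 5′ to 3′ on the gene's strand, and 43 of the 53 members had an entry. Capitals mark the letters searched on both strands, which were the CArG box bound by serum response factor, the E-box CANNTG bound by MyoD-family factors, the M-CAT element CATTCC bound by TEAD factors and TATAAA. The Acta1 stretch lies at chr8:123894776-123895025 on the minus strand, the Tpm1 stretch at chr9:67049214-67049463 on the minus strand and the Tnnc1 stretch at chr14:31208062-31208311 on the plus strand.
Acta1: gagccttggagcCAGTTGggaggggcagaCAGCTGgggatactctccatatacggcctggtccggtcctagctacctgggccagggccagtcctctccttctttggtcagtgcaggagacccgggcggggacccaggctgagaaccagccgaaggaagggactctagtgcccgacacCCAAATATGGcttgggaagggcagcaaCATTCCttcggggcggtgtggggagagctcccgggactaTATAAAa
Tpm1: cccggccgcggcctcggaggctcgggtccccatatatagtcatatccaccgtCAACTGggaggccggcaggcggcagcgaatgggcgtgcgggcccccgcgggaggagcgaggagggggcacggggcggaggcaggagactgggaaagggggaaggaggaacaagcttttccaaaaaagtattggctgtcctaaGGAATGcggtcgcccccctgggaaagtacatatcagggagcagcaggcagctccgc
Tnnc1: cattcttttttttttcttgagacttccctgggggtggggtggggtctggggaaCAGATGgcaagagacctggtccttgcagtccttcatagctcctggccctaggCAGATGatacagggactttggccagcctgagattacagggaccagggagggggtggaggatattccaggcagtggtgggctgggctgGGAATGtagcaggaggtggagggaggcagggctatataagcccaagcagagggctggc
The Acta1 window held a CArG box 73 bases before the start, 2 E-boxes, an M-CAT element 46 bases before the start and TATAAA. The Tpm1 window held 1 E-box and 1 M-CAT element, 56 bases before the start, and the Tnnc1 window held 2 E-boxes and 1 M-CAT element, 58 bases before the start. Each of these windows held both E-box and M-CAT letters, and any role of these letters in the differences was not tested. Over 32851 such windows of all genes, 1.47% held a CArG box, 66.2% an E-box, 12.6% an M-CAT element and 12.4% TATAAA. Over 53 windows of 43 members, 13.2% held a CArG box, 79.2% an E-box, 26.4% an M-CAT element and 18.9% TATAAA. The CArG box was found in Acta1, Actc1, Ldb3, Myh4, Myl3 and Myom1, of which only Acta1 and Ldb3 passed the filter. Actc1 and Myh4 were listed at 0 in both libraries. All of these motif hits are matches of letters and not measured binding.

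Tropomyosins, which stabilise actin filaments and control the access of myosin to them, were the abundant members. Tpm4, whose products are mainly non-muscle tropomyosins, had 441 FPKM in WT and 486 FPKM in KO. Tpm1, which makes both striated muscle and cytoskeletal forms, had 284 FPKM in WT and 546 FPKM in KO and was thus 1.92 times as high in KO. Tpm2 had 84.4 and 124 FPKM, 1.47 times as high in KO. Tpm3, the gene of slow muscle and cytoskeletal forms, had 246 and 268 FPKM. All 4 values were higher in KO, and those of Tpm3 and Tpm4 lay within the interquartile range of all genes, with log2 differences of 0.12 and 0.14. The summed tropomyosin level went from 1056 FPKM in WT to 1424 FPKM in KO, 1.35 times as much, and Tpm1 alone made up 71.2% of this difference of 368 FPKM.

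The make-up of the tropomyosin pool also differed. Tpm1 was 26.9% of the 4 genes' summed FPKM in WT and 38.4% in KO, while Tpm4 went from 41.8% to 34.1% and Tpm3 from 23.3% to 18.8%. Tpm2 was 8.0% and 8.7%. The order of levels was Tpm4, Tpm1, Tpm3, Tpm2 in WT and Tpm1, Tpm4, Tpm3, Tpm2 in KO. These shares are set within a library and do not depend on scaling between the libraries. In rank among all 21829 genes, Tpm1 was number 285 in WT and 153 in KO, and its difference in FPKM was number 33 from the highest among all genes. Each tropomyosin gene makes several proteins from alternative promoters and exons, and the values are per gene, so they do not tell striated from cytoskeletal forms.

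**Figure D4:**
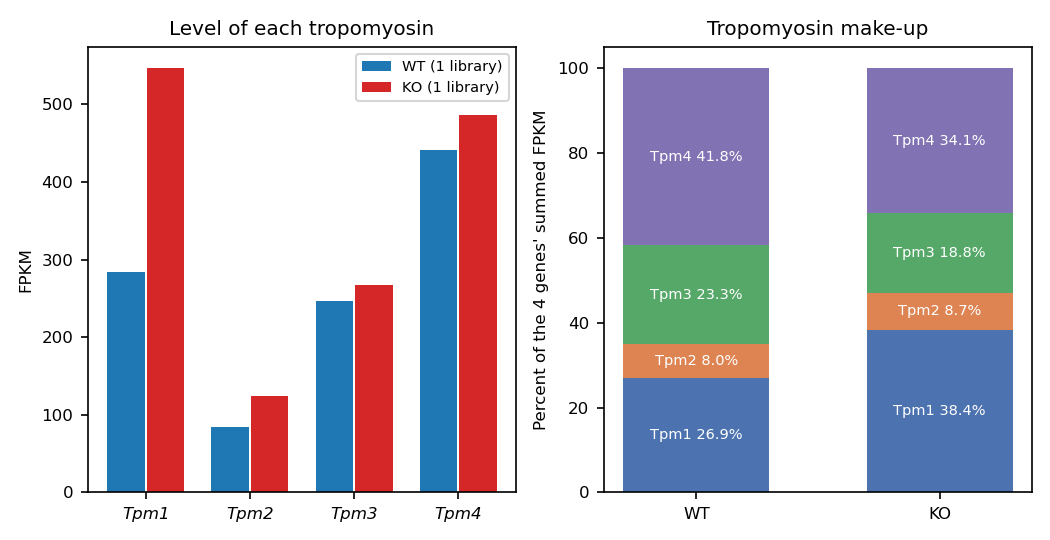
Left, FPKM of the 4 tropomyosin genes in the WT library (blue) and KO library (red), from 0. Right, the percent of the 4 genes' summed FPKM contributed by each gene, with Tpm1 at 26.9% in WT and 38.4% in KO.

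The troponin genes were unevenly expressed, with troponin T far above the other subunits. Tnnt2, the cardiac and embryonic troponin T, had 25.4 FPKM in WT and 26.4 FPKM in KO, a log2 difference of 0.06. Tnnc1, the slow and cardiac troponin C, had 6.66 FPKM in WT and 2.74 FPKM in KO and was thus 2.43 times as high in WT. Tnnc1 overlaps Nisch on the opposite strand, which had 88.7 and 93.6 FPKM, and whether reads were counted by strand is not stated. The fast troponin C gene Tnnc2 had 0.143 and 0.077 FPKM. The slow, fast and cardiac troponin I genes Tnni1, Tnni2 and Tnni3 lay between 0.101 and 0.148 FPKM in WT and between 0.055 and 0.141 FPKM in KO. Tnnt1 and Tnnt3, the slow and fast skeletal troponin T genes, were at most 0.24 FPKM. Summed over its genes, troponin T was 25.7 FPKM in WT and 26.6 FPKM in KO, troponin C 6.80 and 2.82 FPKM, and troponin I 0.380 and 0.271 FPKM. Troponin T was thus 67.7 times troponin I in WT and 98.1 times in KO. No troponin I gene was above 0.148 FPKM, and values this low can rest on very few reads. The 2 ratios to troponin I are therefore not read as a difference between the lines. Troponin T was 3.78 times troponin C in WT and 9.44 times in KO. Summed tropomyosin was 41.1 times summed troponin T in WT and 53.6 times in KO.

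Of the sarcomeric actins, Acta1, the skeletal muscle gene, had 1.84 FPKM in WT and 3.93 FPKM in KO, 2.13 times as high in KO. Actc1, the cardiac gene that is co-expressed in developing muscle, was listed at 0 in both. The 6 actin genes have nearly identical coding sequences, so reads can be assigned to the wrong copy and the low values of Acta1 and Actc1 are uncertain. The related smooth muscle genes were far more abundant, Acta2 with 213 and 544 FPKM and Actg2 with 24.1 and 58.1 FPKM. They were 2.56 and 2.41 times as high in KO, close to the ratio of Acta1. As a share of the 4 muscle actins, Acta1 was 0.772% in WT and 0.649% in KO. The non-muscle genes Actb, with 3318 and 2974 FPKM, and Actg1, with 1414 and 1812 FPKM, made up most of the actin RNA.

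The genes that set thin filament length were close to 0. Tmod1, a cap of the pointed end, had 0.142 FPKM in WT and 0.030 FPKM in KO, and Neb, the nebulin gene, had 0.013 and 0.080 FPKM. Lmod3, a leiomodin that nucleates actin filaments, had 0.024 FPKM in WT and was listed at 0 in KO, and Lmod2 was at 0 in both.

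None of the 6 listed myosin heavy chain genes, which encode the motor of the thick filament, was above 0.026 FPKM. Myh7, the slow and cardiac gene, had 0.026 FPKM in WT and 0.011 FPKM in KO. Myh3, the embryonic gene, had 0.009 FPKM in WT, Myh1 0.019 FPKM and Myh2 0.005 FPKM, all listed at 0 in KO. Myh4 and the perinatal gene Myh8 were at 0 in both. The 6 genes summed to 0.059 FPKM in WT and 0.011 FPKM in KO, against 173 and 188 FPKM for the non-muscle gene Myh9. Myh1, Myh2, Myh3, Myh4 and Myh8 are close copies of each other, so their small values are uncertain among themselves.

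Myosin light chains were detected more than the heavy chains they bind. Myl6b, an essential light chain also made outside muscle, had 5.34 FPKM in WT and 3.18 FPKM in KO, 1.68 times as high in WT. Myl4, the embryonic and atrial essential light chain, had 1.74 and 1.45 FPKM, a log2 difference of -0.16. Mylpf, the fast regulatory light chain, had 0.844 and 1.16 FPKM, a log2 difference of 0.23, and passed the filter narrowly. Myl4 and Mylpf overlap genes on the opposite strand, Cdc27 with 23.2 and 29.0 FPKM and Tbc1d10b with 28.2 and 27.2 FPKM. Myl1, Myl2 and Myl3, the light chains of fast, slow and cardiac fibres, had 0.082, 0.068 and 0.095 FPKM in WT and were all listed at 0 in KO. Of the myosin-binding proteins, Mybpc1 and Mybph were at 0 in both and Mybpc2 had 0.008 FPKM in WT alone.

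At the Z-disc, where thin filaments are crosslinked, 3 of 12 genes passed the filter. Flnc, the muscle filamin that crosslinks actin at the Z-disc and the membrane, had 31.4 FPKM in WT and 41.8 FPKM in KO, a log2 difference of 0.40. Ldb3, whose product cypher (ZASP) holds alpha-actinin in the Z-disc, had 3.27 and 5.92 FPKM, 1.81 times as high in KO. Actn3, the alpha-actinin of fast fibres, had 2.11 and 0.935 FPKM, 2.26 times as high in WT, and its opposite-strand neighbour Ctsf had 0.02 and 0.482 FPKM. Ldb3 and Actn3 thus differed in opposite directions, both outside the interquartile range of all genes. Tcap, the titin cap, had 0.149 FPKM in WT and was at 0 in KO, and Xirp1 had 0.089 and 0.021 FPKM. Of the calsarcins, which tether calcineurin to alpha-actinin, Myoz2 was seen in WT alone, at 0.030 FPKM, and Myoz1 in KO alone, at 0.033 FPKM. Actn2, Myot, Csrp3, Pdlim3 and Xirp2 were at 0 in both.

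Titin and M-band genes were near 0. Ttn, the giant spring that sets sarcomere length, had 0.028 FPKM in WT and 0.006 FPKM in KO. Of the myomesins, which crosslink thick filaments, Myom1 had 0.028 and 0.153 FPKM, Myom2 0.219 and 0.248 FPKM, and Myom3 0.011 FPKM in WT alone. Smyd1, a methyltransferase needed for thick filament assembly, had 0.020 FPKM in WT and 0.401 FPKM in KO, the highest value of any member below the filter. Its partner, the myosin chaperone Unc45b, was at 0 in both. Ckm, the muscle creatine kinase, had 0.029 and 0.016 FPKM, and Mb, which stores oxygen as myoglobin, had 0.191 FPKM in WT and was at 0 in KO.

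The 40 members below the filter were mostly at 0 or lower in KO. Of the 28 that were above 0 in at least 1 library, 22 were lower in KO and 6 higher, the latter being Tnni1, Neb, Myom1, Myom2, Myoz1 and Smyd1. This is 78.6% lower, against 48.6% of the 3218 genes with values under 0.5 FPKM in both libraries and above 0 in at least 1. Listed at 0 in KO alone were 12 of the 28, or 42.9%, against 25.5% of those genes, and listed at 0 in WT alone was 1, or 3.57%, against 22.2%. The 12 were Lmod3, Myh1, Myh2, Myh3, Myl1, Myl2, Myl3, Mybpc2, Myom3, Myoz2, Tcap and Mb, with 0.005 to 0.191 FPKM in WT. Over all 40, the sums were 2.17 FPKM in WT and 1.51 FPKM in KO. Values this low can rest on very few reads, so no single gene of this group is given a fold. As a check on zeros of widely expressed genes, 83 ribosomal protein genes were at 0 only for the tissue-restricted copies Rpl10l, Rpl39l and Rpl3l, and 39 proteasome genes only for Psma8, Psmb11 and Psmb8. This check cannot show whether zeros of genes as weakly expressed as the 12 above are real.

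In every family with non-sarcomeric counterparts, the sarcomeric genes were a minor part of the RNA. They were 0.037% of actin FPKM in WT and 0.073% in KO, 0.031% and 0.0052% of myosin heavy chains, and 0.590% and 0.301% of essential light chains. They were 0.170% and 0.213% of regulatory light chains, 0.791% and 0.361% of alpha-actinins, and 0.810% and 0.166% of tropomodulins and leiomodins. The heavy chain shares rest on 0.059 and 0.011 FPKM, and those of tropomodulins and leiomodins on 0.166 and 0.030 FPKM. Values this low can rest on very few reads, so these shifts are not read as differences. The actin shares rest on Acta1, whose low values are uncertain as given above. Flnc was 8.51% of the filamins in WT and 8.88% in KO, the highest share among these families in both libraries. Ckm was 0.406% of the 2 cytosolic creatine kinases in WT and 5.97% in KO. That shift came with Ckb, named after its value was seen, which had 7.11 FPKM in WT and 0.252 FPKM in KO, while Ckm stayed at or below 0.029 FPKM. With each FPKM weighted by transcript length, every one of these shares kept its direction, but that of Ckm in KO was 15.1%, above that of Flnc at 8.56%.

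**Figure D5:**
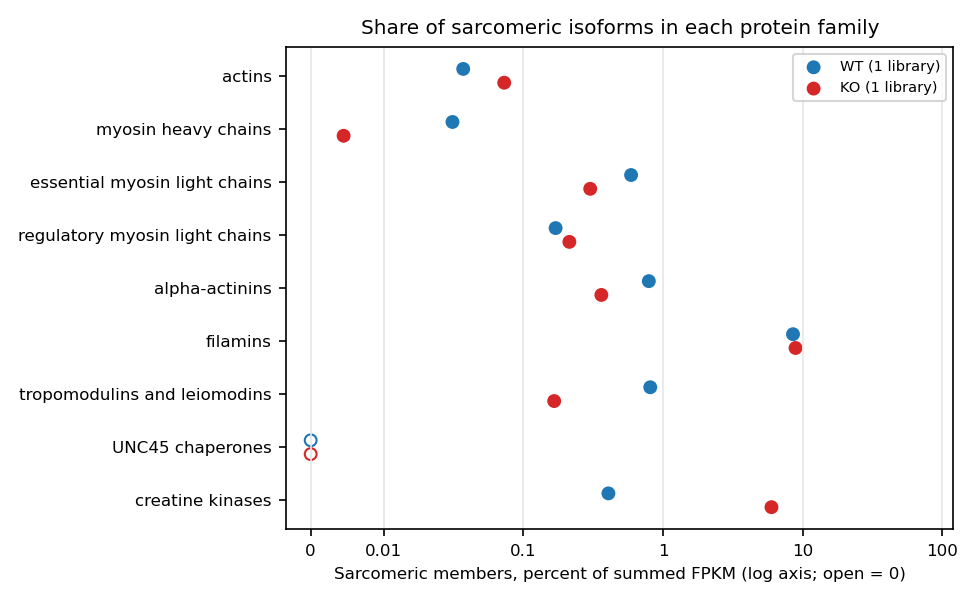
Sarcomeric members as a percent of the summed FPKM of their protein family, on a log axis, in the WT (blue) and KO (red) library, with open circles for 0. Filamins had the highest sarcomeric share in both libraries, 8.51% and 8.88%. The share of myosin heavy chains was 0.031% and 0.0052%, which rests on summed values of 0.059 and 0.011 FPKM.

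Other genes of the contractile and myogenic programme were compared by lists. Of 25 non-sarcomeric counterparts, 21 passed the filter, among which 4 were higher in KO by more than 2-fold and 1, Ckb, was lower, with a median log2 difference of 0.18. The 4 were Acta2 and Actg2, given above, Tagln, an actin-binding protein of smooth muscle, with 20.3 and 54.5 FPKM, and Myl9, a smooth muscle regulatory light chain, with 14.4 and 30.4 FPKM. Their log2 differences ran from 1.03 to 1.38. As whole lists, the medians were close, 0.18 for the counterparts and 0.14 for the sarcomere members past the filter. Of 28 sarcomere assembly and turnover genes in the files, 15 passed the filter and 0 were beyond 2-fold, with a median of -0.02. The 4 with the largest differences among those at 5 FPKM or more were Pdlim5 (26.1 and 40.04 FPKM), the small heat shock protein Cryab (178 and 243 FPKM), Bag3 (32.03 and 42.8 FPKM) and Ankrd1 (86.8 and 72.4 FPKM). Below 5 FPKM, and named after their values were seen, larger differences were found for Synpo2 at -0.85, Trim54 at -0.77, Fhod3 at -0.74 and Fbxo32 at -0.61, all lower in KO.

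Of 25 myogenic regulators in the files, 16 passed the filter, of which 1, Myf5, was higher in KO by more than 2-fold, with 9.14 and 20.3 FPKM. Myod1, with its 0 as above, and Id3, an inhibitor of MyoD-family factors, with 226 and 98.6 FPKM, were more than 2-fold lower, and Id2 had 92.9 and 47.8 FPKM. The list median was -0.16. Myog, the factor that opens terminal differentiation, was 0.068 FPKM in WT and 0.027 FPKM in KO, named after its value was seen. Of 17 fusion and excitation-contraction genes in the files, 6 passed the filter and 2 were more than 2-fold lower in KO. These were Cacng1, a calcium channel subunit, with 37.6 and 4.68 FPKM, and Pvalb, a calcium buffer of fast fibres, with 4.69 and 0.479 FPKM, the latter named after its value was seen. Jph2 had 15.9 and 20.6 FPKM and Atp2a2 111 and 126 FPKM.

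Markers of other cell types were measured beside these genes. Of 9 fibroblast markers, 4 passed the filter, 3 of them higher in KO by more than 2-fold, with sums of 259 FPKM in WT and 942 FPKM in KO, and Lum, Thy1 and Tcf21 were at 0 in both. Col1a1 had 9.66 and 273 FPKM, Postn 0.440 and 33.9 FPKM, Col1a2 237 and 621 FPKM and Pdgfra 10.8 and 12.3 FPKM. Of 6 smooth muscle markers, 3 passed the filter, Actg2 being higher and Des lower by more than 2-fold, with sums of 146 and 90.1 FPKM, while Smtn had 23.7 and 26.5 FPKM. Des is also among the myoblast markers. Without it the smooth muscle sums were 47.9 and 86.3 FPKM, and this removal changed the list as it was set. All 5 of the other genes were higher in KO, but most of the difference in these sums was Actg2, with 24.1 and 58.1 FPKM. Myh11 (0.009 and 0.020 FPKM), Cnn1 (0.043 and 0.157 FPKM) and Lmod1 (0.086 and 1.49 FPKM) were below the filter. Of 6 adipocyte markers only Pparg passed the filter, with 10.2 and 9.31 FPKM, and Adipoq, Plin1, Cidec and Lep were at 0 in both. Endothelial markers summed to 0.010 and 0.028 FPKM with Cdh5, Kdr, Emcn and Cldn5 at 0 in both. Immune markers summed to 2.90 and 1.14 FPKM, of which Cd68 was 2.85 and 1.06 FPKM, with Ptprc, Itgam, Adgre1 and Cd3e at 0 in both. Neuronal and glial markers summed to 18.2 and 1.25 FPKM, of which Tubb3 was 18.0 and 0.997 FPKM, and Sox10 was at 0 in both. The part of any of these in the differences of the sarcomere genes was not tested.

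Some members lie among genes that differed together. On GRCm39, with the GENCODE vM39 annotation, Tpm1 lies on chromosome 9 from 66929870 to 66956953, where the 62 filtered genes up to 5 Mb away in either direction showed a median log2 difference of 0.31. After subtraction of that median Tpm1 had 0.63. Acta1 lies on chromosome 8 from 124618501 to 124623661, and its 78 neighbours had a median of 0.33, which left 0.46. Tnnc1, on chromosome 14 from 30930232 to 30933708, had 47 neighbours with a median of -0.08 and kept -0.95, short of a 2-fold difference. Tpm2, on chromosome 4 from 43514697 to 43524949, kept 0.59, and Ldb3, on chromosome 14 from 34248056 to 34312351, had 0.86. Of the 13 members, 12 kept their sign, the exception being Tnnt2, which went from 0.06 to -0.17 on chromosome 1, from 135763738 to 135780315. Whether the lines differ in DNA copy number at these places was not tested.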

How the data were processed

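RNA from 1 WT and 1 KO C2C12 culture was sequenced after poly(A) selection. The labels name an Illumina stranded kit and the supplementary methods an MGI directional kit. Per the submitters' processing notes, Trim Galore 0.6.6, STAR 2.7.9a and RSEM 1.3.3 were used. The methods name another STAR version and GRCm39, while the notes name GRCm38. The authors deposited 1 value per symbol, treated as FPKM. Since no unit is named, TPM limited to these genes is possible, which would change each library by 1 factor. No counting interval could be given without depth.

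Among 21853 rows there were 24 repeated symbols, resolved by keeping the higher mean. Filter, pseudocount and a 2-fold threshold are as given above. No test was run. Neighbours were the genes past the filter within 5 Mb, from GENCODE vM39 on GRCm39, which placed 10171 of 10542 genes. Promoter sequences came from RefSeq on GRCm38.p6. All members past the filter are given with values. From other lists, up to 4 genes with the largest difference and a mean of at least 5 FPKM are named. The members and lists were chosen with earlier results of these data known. The procedure was tested on simulated data with planted differences far beyond 2-fold in genes at 5 FPKM or more in WT. Calls near 2-fold or at lower values were not tested in this way. Python 3.11.15, numpy 2.4.6 and pandas 2.3.3 were used.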

Additional observations from a re-analysis of the deposited data

How the results depend on the processing

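Alternatives changed 1 choice at a time. The count of members more than 2-fold higher in KO, 0, became 1 with a pseudocount of 0.1. The count of members more than 2-fold lower, 1, became 2 with a pseudocount of 0.1. It became 0 with the pseudocount set to 5, the filter raised to 5 FPKM, or the median of neighbouring genes subtracted. Over all genes, the 299 higher and 362 lower fell to 102 and 176 under the larger pseudocount, and to 145 and 221 under the stricter filter, which leaves fewer genes. Of 97 values for single members under the alternatives, 96 kept their sign and 96 moved by no more than the interquartile range of all genes, 0.44. The exception in size was Tnnc1, at -0.59 with a pseudocount of 5. Changes of the filter or of the rule for repeated symbols left each member's own value as it was, and the scalings hardly changed it. Much of this count was thus fixed in advance. The allowance is also wide, since Acta1 went from 0.79 to 0.38 with a pseudocount of 5 and stayed within it. The difference in Tpm1 share, 11.4 percentage points, was 10.1 with sums weighted by transcript length. No replicate could be left out, and TMM and DESeq2 size factors were not run because the values are not counts. No paired analysis was possible because there is 1 library per line and no test. Unknown depth limits what can be said of members under 0.5 FPKM.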
